A study of Homo sapiens with 6 samples.

Results

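Integrins and laminins form the main molecular bridge between a cell and the basement membrane, and the data here are the messenger RNA levels of their subunit genes in an ovarian cancer cell line with knockdown of the splicing factor USP39. The genes were chosen by symbol: integrin alpha chains, integrin beta chains and the alpha, beta and gamma chains of laminin. The rule matches 38 known genes, and 33 of them, held in 38 transcript entries, were among the 16571 genes of the count table. ITGA2, ITGA8, ITGAM, ITGB6 and LAMA3 were not analysed here. By family, 15 of 18 integrin alpha genes, 7 of 8 integrin beta genes, 4 of 5 laminin alpha genes, 4 of 4 laminin beta genes and 3 of 3 laminin gamma genes were present.

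RNA-seq was performed on A2780, an established human cell line that the labels call serous ovarian cancer. One group carried pGIPZ-NC, a lentiviral vector for short hairpin RNA with a control insert, and the other carried shUSP39, a hairpin that targets USP39, which belongs to the spliceosome. Both groups were infected with lentivirus, and the study's methods describe stable lines made by puromycin selection. There were 3 libraries per group, described as biological triplicates of 1 cell line. The labels do not say which hairpin sequence a given shUSP39 library carried. USP39 itself was not analysed here, so its own level could not serve as a check of the labels. If the triplicates are not separate cultures, the p-values cover the spread between these libraries alone.

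A laminin is a cross-shaped trimer of 1 alpha, 1 beta and 1 gamma chain that cells secrete and that polymerises into the sheet of the basement membrane. An integrin is a dimer of 1 alpha and 1 beta chain that spans the plasma membrane, binds laminin, fibronectin, collagen or other ligands outside the cell, and couples to actin through talin, kindlin and other adaptors inside it. The alpha chain largely sets which ligand is bound. In epithelial and ovarian tissue these proteins hold cells to the basement membrane, and in tumour spread they serve in adhesion, migration and invasion.

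Depth lay between 28294819 and 32939264 counts per library, and the subunit genes took between 0.228% and 0.242% of them. The pGIPZ-NC libraries and shUSP39 replicate 1 held a count for between 12662 and 12819 genes, while shUSP39 replicates 2 and 3 held one for 15446 and 14890. The labelled cell type was checked against marker genes. EPCAM and PAX8 had at most 6 counts in any library and CDH1 and MSLN at most 1, so the counts of these 4 defining epithelial and ovarian markers were near 0. A low count in these data does not show a low level, since the widely expressed gene ACTN1 had at most 4 counts. MUC16, another ovarian marker, had 5, 1 and 1 counts in pGIPZ-NC and 6, 150 and 71 in shUSP39 replicates 1, 2 and 3. Of the keratin genes, KRT18 and KRT19 were detected in every library. KRT19 fell by 3.64 on the log2 scale (edgeR adjusted p = 3.51e-17). KRT8 had 28, 37 and 26 counts in pGIPZ-NC and 3, 0 and 0 in shUSP39. It passed the count filter only through pGIPZ-NC, so its test lends no support to a difference. KRT18 rose by a log2 fold change of 0.56 (edgeR adjusted p = 1.51e-05), while KRT7 had at most 16 counts. Levels are given as CPM, the counts of a gene scaled to the library's total by the trimmed mean of M-values (TMM). Of the 7 leukocyte markers in the table, CD68, also known from other cell types, had 295 to 382 counts per library, and the other 6 had at most 17, with PTPRC at most 7 and CD3E at most 5. The 6 endothelial markers summed to at most 2.06 CPM in any library. Fibroblast markers, mostly COL1A2 and COL3A1, summed to between 2562 and 2678 CPM in pGIPZ-NC and between 1247 and 1312 CPM in shUSP39. Of the 9 fibroblast markers, PDGFRA and FAP had at most 6 counts and 7 were tested. Of these 7, 1 rose (THY1) and 4 fell, against 16.1% and 17.5% of all genes tested. DCN, among the 4, had 31, 22 and 49 counts in pGIPZ-NC and 0, 1 and 6 in shUSP39. It passed the count filter only through pGIPZ-NC, so its test lends no support to a difference. The part of these marker changes in the results below was not tested. In bulk RNA, fewer cells of a kind and less RNA per cell cannot be told apart.

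Of the 33 genes, 15 had enough counts to be tested and 18 were below the filter. LAMB1 and ITGB8 rose by more than 2-fold, and ITGA5 and ITGA3 rose by less. LAMB2 fell, and LAMA5, LAMC1, ITGB1 and ITGAE fell by smaller amounts. The test was edgeR's quasi-likelihood test, adjusted after Benjamini and Hochberg over all 10695 genes tested. By this test 4 subunit genes were higher in shUSP39 and 5 were lower at an adjusted p under 0.05. That is 9 of 15, against 33.6% of all genes tested (16.1% higher and 17.5% lower). Beyond a 2-fold change, 2 were higher (LAMB1 and ITGB8) and none was lower, against 6.81% of all genes tested (4.53% higher and 2.28% lower). The count of 0 also stood at an unadjusted p under 0.05, by DESeq2's Wald test and by limma-voom, since no tested subunit gene was lower by 2-fold. The libraries of the groups did not overlap in 9 of the 15, against 44.2% of all genes tested. The median log2 fold change was -0.08 over the 15 genes and 0.01 over all genes tested.

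**Figure D1:**
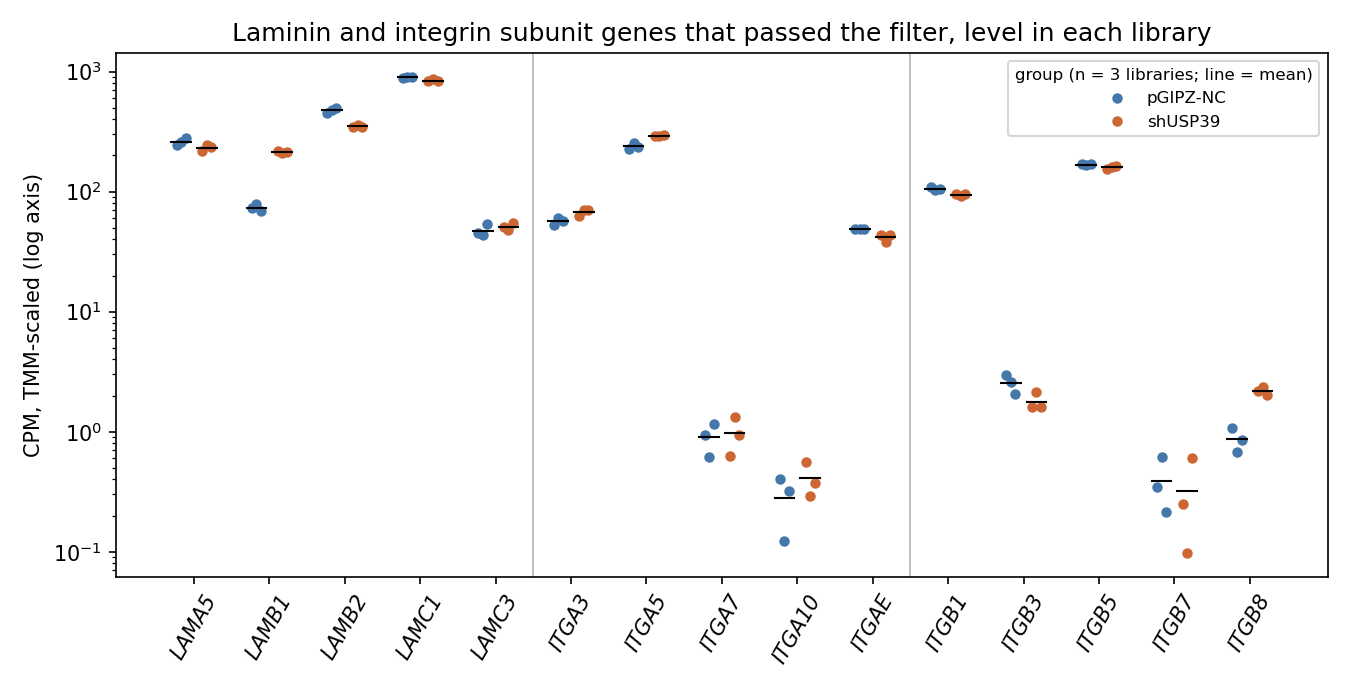
Level of the 15 tested subunit genes in each library, as TMM-scaled CPM on a log axis; points are libraries (3 per group) and lines are group means. LAMB1 is the laminin gene whose groups lie farthest apart (73.6 and 212 CPM), ITGB8 is separated at a level near 1 to 2 CPM, and most other genes lie close together in both groups.

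LAMB1 and LAMB2 encode the laminin beta chains β1 and β2, which take the same place in the trimer. LAMB1 lies on chromosome 7 (GRCh37, 107564244 to 107643658, minus strand, 34 exons in the longest coding transcript). In the order of replicates 1 to 3, LAMB1 had 2317, 2574 and 1950 counts in the pGIPZ-NC libraries and 6933, 6391 and 6275 in the shUSP39 libraries. Every shUSP39 library was far above every pGIPZ-NC library, and the 3 values within each group were close. The level rose from 73.6 ± 5.16 to 212 ± 3.98 CPM (SD, n = 3), a log2 fold change of 1.53 (SE 0.05, edgeR adjusted p = 1.31e-18). This is 2.88-fold, with a 95% interval of 2.69 to 3.09.

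LAMB2 lies on chromosome 3 (GRCh37, 49158547 to 49170551, minus strand, 32 exons). Its counts were 14295, 15625 and 14093 in pGIPZ-NC and 10990, 11049 and 10236 in shUSP39, in the same order, which is kept for all genes that follow. All 3 shUSP39 libraries were below all 3 pGIPZ-NC libraries. The level fell from 476 ± 25.8 to 350 ± 9.40 CPM (SD, n = 3), a log2 fold change of -0.44 (SE 0.04, edgeR adjusted p = 8.10e-10). LAMB1 and LAMB2 each have 1 RefSeq coding transcript, and it is the one counted.

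As a class, the beta chains differed between the groups in make-up, while their sum did not separate the groups. The summed level of the 4 beta genes was 521, 560 and 568 CPM in pGIPZ-NC and 560, 569 and 558 CPM in shUSP39, and the groups overlapped. LAMB1 supplied 13.9%, 14.1% and 12.2% of this sum in the pGIPZ-NC libraries and 38.7%, 36.6% and 38.0% in the shUSP39 libraries. The share was 13.4% ± 1.10 and 37.8% ± 1.04 (SD, n = 3). Divided by transcript length it was 13.5% and 38.0%, so transcript length hardly enters it. For each LAMB1 count there were 6.49 ± 0.641 LAMB2 counts in the control libraries and 1.65 ± 0.0734 after knockdown (SD, n = 3). An exact permutation test of 3 against 3 libraries cannot reach a two-sided p under 0.05, so these shares are given without a test.

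**Figure D2:**
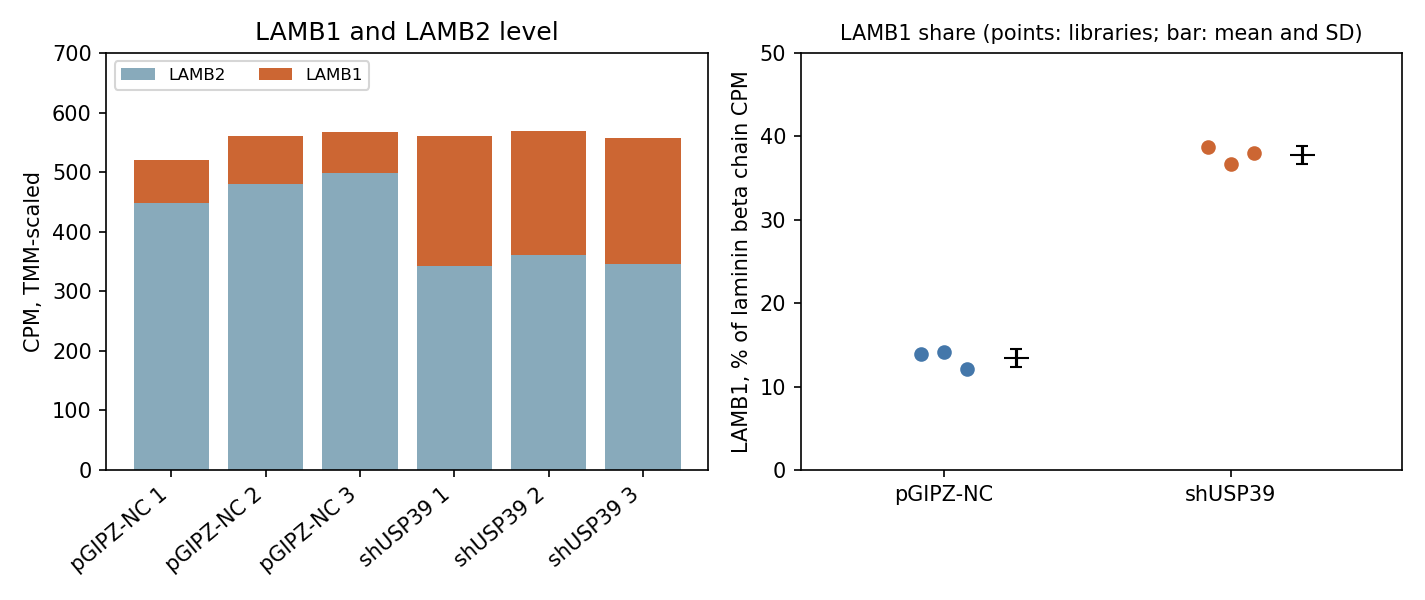
Left, LAMB2 (blue) and LAMB1 (orange) stacked as TMM-scaled CPM in each library; right, the share of LAMB1 in the CPM of the 4 laminin beta genes, with points for libraries and a bar for mean and SD (n = 3). The stacks reach a similar height in both groups, while the LAMB1 share is 12.2% to 14.1% in pGIPZ-NC and 36.6% to 38.7% in shUSP39.

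The other beta genes were barely counted. LAMB3, which encodes a chain of the epidermal type of laminin, had 4 counts in pGIPZ-NC replicate 3, 1 in shUSP39 replicate 1 and 0 in the rest. LAMB4, the gene next to LAMB1 on chromosome 7 (107663993 to 107770806), had 1 count in shUSP39 replicate 3 and 0 in the rest. Only 1 of the 4 RefSeq coding transcripts of LAMB4 was counted. DLD, a coding gene on the opposite strand that shares exonic sequence with LAMB1, was not analysed here. Whether the counting used strand is not stated, so reads from the shared stretch cannot be told apart.

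LAMC1 encodes γ1, the gamma chain of most laminins, and was the most highly expressed subunit gene per length, at 113 CPM per kilobase in pGIPZ-NC and 106 in shUSP39. It lies on chromosome 1 (GRCh37, 182992555 to 183114727, plus strand, 28 exons). Counts were 28327, 29393 and 25313 in pGIPZ-NC and 26570, 26334 and 24592 in shUSP39. After scaling, all shUSP39 libraries (830 to 860 CPM) were below all pGIPZ-NC libraries (888 to 905 CPM), but by little. The log2 fold change was -0.09 (SE 0.03, edgeR adjusted p = 0.0193). With upper-quartile scaling in place of TMM it was -0.05 (edgeR adjusted p = 0.241), and over the 16 alternatives tried the adjusted p ran from 0.00239 to 0.241.

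LAMC3, another gamma chain gene, had 1447, 1401 and 1514 counts in pGIPZ-NC and 1621, 1472 and 1617 in shUSP39. The groups overlapped in CPM, and the difference did not pass (log2 fold change 0.11, SE 0.08, edgeR adjusted p = 0.297), with a 95% interval of 0.972 to 1.20 for the fold. Per length, LAMC1 made up 94.7% ± 0.607 of the gamma chain level in control libraries and 93.9% ± 0.471 after knockdown (SD, n = 3).

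Of the laminin alpha chains, which carry the main integrin-binding domains, LAMA5 was nearly the only one measured. LAMA5 encodes α5, a long chain found in most adult basement membranes. It lies on chromosome 20 (GRCh37, 60883011 to 60942368, minus strand, 80 exons), and had 7764, 8441 and 7920 counts in pGIPZ-NC and 6925, 7557 and 6991 in shUSP39. Scaled to depth, the lowest pGIPZ-NC library (243 CPM) was below the highest shUSP39 library (247 CPM), so the groups overlapped. The log2 fold change of -0.16 passed the test (SE 0.05, edgeR adjusted p = 0.0134), but not with upper-quartile scaling (adjusted p = 0.0835), without pGIPZ-NC replicate 3 (0.103) or without shUSP39 replicate 1 (0.0647). The range of the adjusted p over the 16 alternatives was 0.000121 to 0.103. Among the 4 alpha genes LAMA5 held at least 99.3% of the level per length in every library. This share refers to the transcripts counted, which leave out some RefSeq coding transcripts of LAMA2 and LAMA4, and LAMA3 was not analysed. On the other strand ADRM1, with at most 4 counts in any library, and LAMA5-AS1 share exonic sequence with it. The use of strand in counting is not stated, so reads from the shared stretches cannot be told apart, and the low ADRM1 count does not settle this.

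LAMA1 encodes α1, the alpha chain of the classic embryonic laminin, and stood out among the genes below the filter. Its counts were 0, 0 and 0 in pGIPZ-NC and 0, 44 and 18 in shUSP39 replicates 1, 2 and 3. The 2 libraries with counts are the 2 in which more genes were detected. In all, 2440 genes had 0 counts in the pGIPZ-NC libraries and in shUSP39 replicate 1. Of these, 1246 had a count in both shUSP39 replicates 2 and 3, and 24 had at least 10 counts in both. The part of this library difference in the LAMA1 counts was not tested. LAMA2 and LAMA4, the α2 and α4 chain genes of muscle and vessel basement membranes, had at most 1 and 3 counts in any library. Only 1 of 2 RefSeq coding transcripts of LAMA2 and 1 of 5 of LAMA4 were counted, so the levels of these genes are not known.

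**Figure D3:**
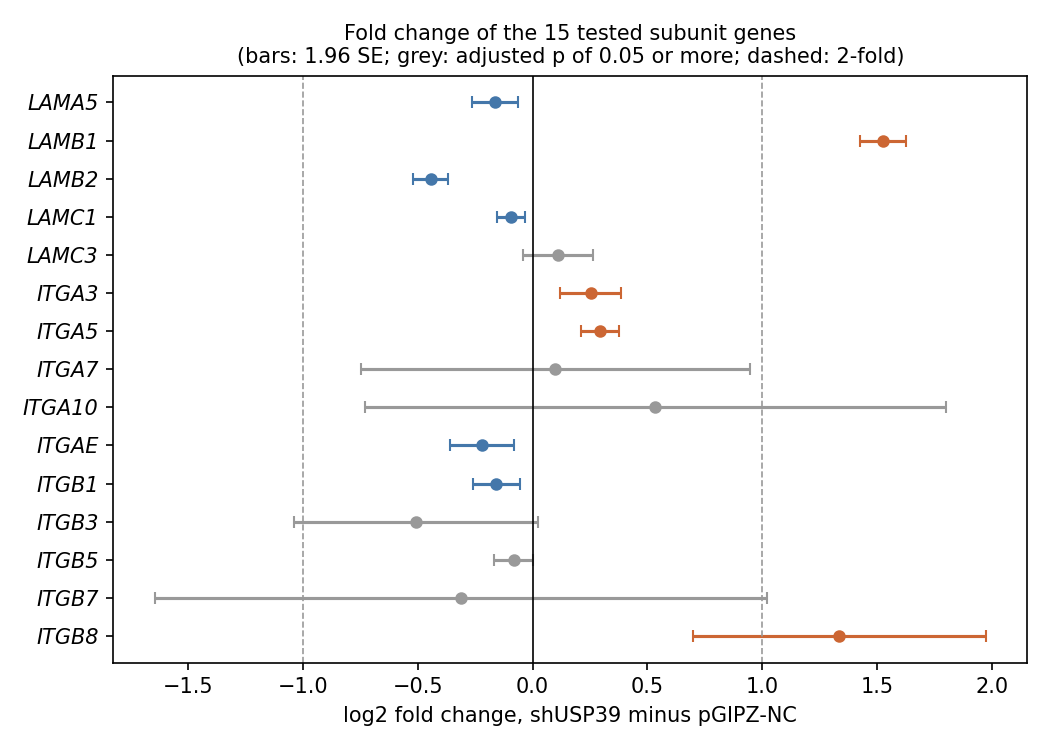
Log2 fold change of the 15 tested subunit genes, shUSP39 minus pGIPZ-NC, with bars of 1.96 SE; orange and blue mark an adjusted p under 0.05 (higher and lower), grey the rest, and dashed lines mark 2-fold. LAMB1 (1.53) and ITGB8 (1.34) lie beyond the upper dashed line, and ITGA7, ITGA10 and ITGB7 have wide bars that span 0.

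Among the integrin alpha chains, ITGA5 was the main one measured and it rose. ITGA5 encodes α5, which pairs with β1 in the classic fibronectin receptor and binds the RGD tripeptide of its ligand. It lies on chromosome 12 (GRCh37, 54789045 to 54813050, minus strand, 30 exons). Its counts were 7216, 8246 and 6673 in pGIPZ-NC and 9327, 8885 and 8761 in shUSP39. No pGIPZ-NC library reached a shUSP39 library in counts or in CPM. The level rose from 239 ± 13.9 to 292 ± 3.12 CPM (SD, n = 3), a log2 fold change of 0.29 (SE 0.04, edgeR adjusted p = 2.78e-06).

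ITGA3 encodes α3, a laminin-binding chain that prefers laminins with the α5 or α3 chain. Located on chromosome 17 (GRCh37, 48133332 to 48167845, plus strand, 26 exons), it had 1670, 1967 and 1605 counts in pGIPZ-NC and 1992, 2152 and 2069 in shUSP39. In CPM the lowest shUSP39 library (62.2) was just above the highest pGIPZ-NC library (60.5). The log2 fold change was 0.25 (SE 0.07, edgeR adjusted p = 0.00426). With shUSP39 replicate 1 as the only shUSP39 library it was 0.14 (edgeR adjusted p = 0.357), the highest of 16 alternatives, of which the other 15 kept the call and the lowest was 0.000244.

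The other laminin-binding alpha chain genes had low counts. ITGA7, the α7 chain known from muscle, had between 20 and 41 counts per library with the groups overlapping (log2 fold change 0.10, SE 0.43, edgeR adjusted p = 0.892). Of its 14 RefSeq coding transcripts 2 were counted, so the level of the gene is not known from them. ITGA6 had 1, 0 and 1 counts in pGIPZ-NC and 11, 7 and 4 in shUSP39, higher in every shUSP39 library but below the filter. Only 1 of the 6 RefSeq coding transcripts of ITGA6 is in the table, so the level of the gene is not known from it.

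ITGAE encodes αE, which pairs with β7 on lymphocytes of epithelia and binds E-cadherin. Its counts were 1551, 1593 and 1370 in pGIPZ-NC and 1396, 1169 and 1291 in shUSP39. In CPM the pGIPZ-NC libraries were nearly equal (48.5 to 49.0) and all shUSP39 libraries lay below them (38.2 to 43.6). The log2 fold change was -0.22 (SE 0.07, edgeR adjusted p = 0.0164), which did not pass with upper-quartile scaling (adjusted p = 0.0553) or without shUSP39 replicate 2 (0.125). Its adjusted p was 0.00593 to 0.293 over 16 alternatives. For its partner gene ITGB7 the table holds 1 of 18 RefSeq coding transcripts, which does not give the level of the gene, with 11, 20 and 6 counts in pGIPZ-NC and 8, 3 and 18 in shUSP39 (log2 fold change -0.31, SE 0.68, edgeR adjusted p = 0.775). The ITGAE row is 1 of 3 RefSeq coding transcripts. On the opposite strand, and sharing exonic sequence with ITGAE, lies the kinase gene HASPIN (GSG2 in the table). HASPIN had 114 ± 2.60 CPM in pGIPZ-NC and 112 ± 4.30 in shUSP39 (log2 fold change -0.02, edgeR adjusted p = 0.807). Reads from this shared stretch cannot be told apart either.

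The other leukocyte alpha genes ITGAL, ITGAX and ITGAD had at most 2, 6 and 1 counts in any library, and ITGB2, their shared beta chain gene, had 1 count in 1 library. These genes mark immune cells, and their counts were as low as those of PTPRC and CD3E. Only 1 of 2 RefSeq coding transcripts was counted for each of ITGAL, ITGAX and ITGAD, and 1 of 3 for ITGB2. These counts therefore do not give the levels of the genes. The collagen-binding chain genes had low counts as well. ITGA1 had 4, 1 and 5 counts in pGIPZ-NC and 7, 8 and 9 in shUSP39, ITGA11 had 1, 5 and 1 against 4, 11 and 15, and ITGA10 had 13, 4 and 9 against 18, 9 and 11. ITGA10 alone of these was tested and did not pass (log2 fold change 0.53, SE 0.65, edgeR adjusted p = 0.576). Summed over these 3 genes the level was between 0.308 and 0.564 CPM in pGIPZ-NC and between 0.906 and 1.18 CPM in shUSP39, without overlap, but these sums rest on few counts.

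The α4 and α9 genes, which bind VCAM-1 and fibronectin or tenascin, had at most 6 (ITGA4) and 11 (ITGA9) counts in any library. ITGA2B, the platelet chain, ranged from 2 to 20 counts with no separation. ITGAV, the partner of several beta chains, had 4 counts in shUSP39 replicate 1 and 0 elsewhere. The table holds 1 of its 3 RefSeq coding transcripts, so these counts do not give the level of the gene.

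Summed over the 15 alpha genes, the level was 346 ± 17.8 CPM in control libraries and 405 ± 6.89 CPM after knockdown (SD, n = 3), and the groups did not overlap. Per length, ITGA5 made up 69.4% ± 0.568 of the alpha chain level in pGIPZ-NC and 73.1% ± 0.511 in shUSP39, and ITGAE 15.8% ± 0.725 and 11.7% ± 0.822. The ITGA3 share was 14.3% ± 0.354 and 14.6% ± 0.886, within the spread of the libraries. The shares refer to the transcripts in the table, which leave out most transcripts of ITGAV, ITGA6 and ITGA7.

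Of the 5 integrin beta genes tested, ITGB8 rose and ITGB1 fell. ITGB1 encodes β1, the common partner of at least the α3, α5 and α7 chains. Its counts, summed over 3 transcripts, were 3457, 3331 and 2956 in pGIPZ-NC and 3056, 2798 and 2845 in shUSP39. In CPM all shUSP39 libraries (91.3 to 96.1) were below all pGIPZ-NC libraries (103 to 108). The log2 fold change was -0.16 (SE 0.05, edgeR adjusted p = 0.0188). It did not pass with upper-quartile scaling (edgeR adjusted p = 0.0954), without pGIPZ-NC replicate 1 (0.0694) or without shUSP39 replicate 2 (0.0949), and alternatives gave an adjusted p from 0.00533 to 0.215. For each ITGB1 count there were 2.27 ± 0.195 ITGA5 counts in the control libraries and 3.10 ± 0.0648 after knockdown (SD, n = 3).

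ITGB5 encodes β5, which pairs with αV and binds vitronectin, and per length it was the highest beta chain, at 37.9 CPM per kilobase in pGIPZ-NC and 35.8 in shUSP39. The table holds 1 of its 4 RefSeq coding transcripts. It had 5372, 5382 and 4815 counts in pGIPZ-NC and 4935, 4868 and 4839 in shUSP39. The shUSP39 libraries were lower in CPM without overlap, yet the difference did not pass (log2 fold change -0.08, SE 0.04, edgeR adjusted p = 0.153), with a 95% interval of 0.891 to 1.00 for the fold. ITGB3, the β3 chain of platelets and vessels, had 94, 84 and 58 counts against 51, 65 and 48, with overlapping CPM (log2 fold change -0.51, SE 0.27, edgeR adjusted p = 0.160).

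ITGB8 encodes β8, which pairs with αV and is known for releasing TGF-β from its latent complex. It lies on chromosome 7 (GRCh37, 20370325 to 20455377, plus strand, 14 exons). The counts were 34, 22 and 24 in pGIPZ-NC and 70, 72 and 60 in shUSP39, and each shUSP39 library was well above each pGIPZ-NC library. The level rose from 0.864 ± 0.195 to 2.19 ± 0.162 CPM (SD, n = 3), a log2 fold change of 1.34 (SE 0.33, edgeR adjusted p = 0.00195). The fold was 2.53 with a 95% interval of 1.62 to 3.93, wider than that of LAMB1 at these low counts. With shUSP39 replicate 1 as the only shUSP39 library the log2 fold change was also 1.34 (edgeR adjusted p = 0.0503), and the other 15 alternatives kept the call, with an adjusted p as low as 0.000886. Per length ITGB8 made up 0.159% of the beta chain level without and 0.435% with the knockdown hairpin, so it remained a minor chain at the RNA level.

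ITGB4, the β4 chain of hemidesmosomes that pairs with α6, had 13, 30 and 6 counts in pGIPZ-NC and 3, 7 and 2 in shUSP39. It was below the filter and the groups overlapped at 1 library of each. Summed over the 7 beta genes the level was 278 ± 4.37 CPM in control libraries and 258 ± 5.56 CPM after knockdown (SD, n = 3), with no overlap.

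**Figure D4:**
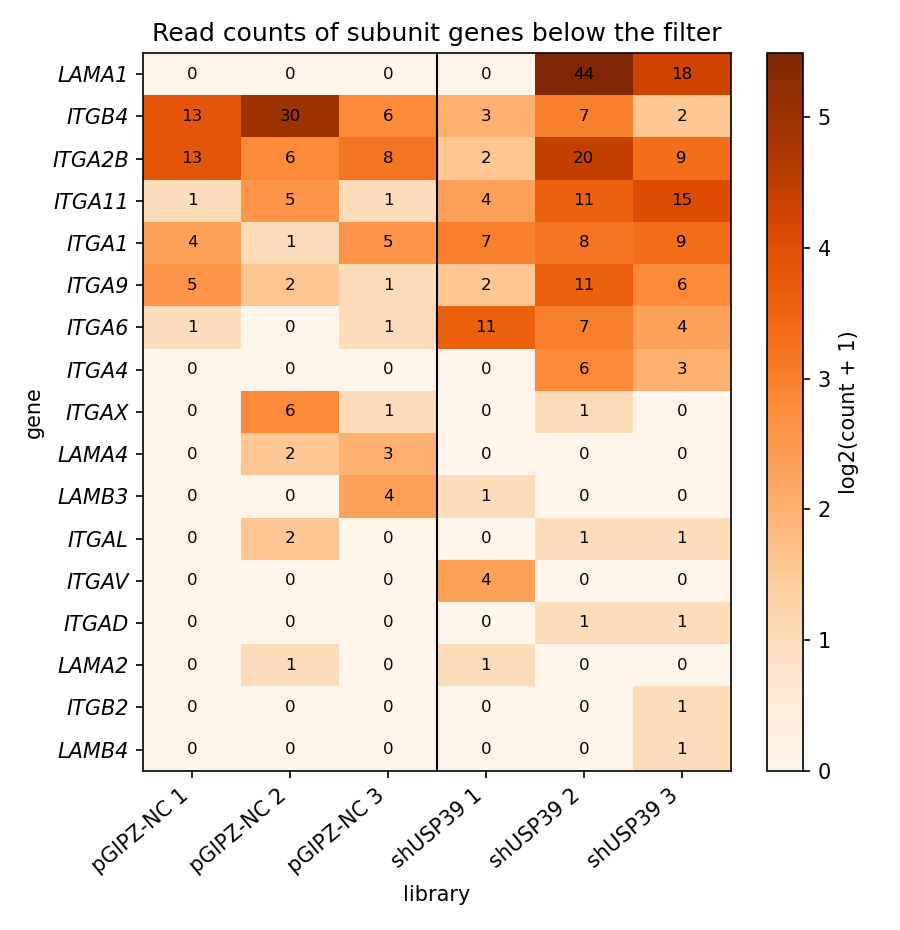
Read counts of subunit genes below the filter in each library, coloured by log2(count + 1), with the count printed in each cell and a line between pGIPZ-NC (left) and shUSP39 (right). LAMA1 has the highest count (44, in shUSP39 replicate 2), and 6 genes never exceed 3 counts in any library.

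Ordered by level per length in pGIPZ-NC, the subunit genes ran LAMC1 (113 CPM per kilobase), LAMB2 (83.6), ITGA5 (56.2), ITGB5 (37.9), LAMA5 (22.9), ITGB1 (21.9), LAMB1, ITGAE (12.8), ITGA3 (11.6) and LAMC3 (6.35). In shUSP39 LAMC1 (106) was still the highest, while ITGA5 (68.8) stood above LAMB2 (61.5) and LAMB1 (37.6) stood above ITGB5 (35.8). The order of near neighbours, such as LAMA5 and ITGB1 or LAMB1 and ITGAE, was not tested, and length was taken from 1 transcript per gene.

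Since USP39 is a splicing protein, transcripts of 1 gene were compared where the table allowed it. Of the 33 genes, 29 had 1 transcript in the table and ITGA7, ITGB1, ITGB4 and LAMB3 had more, and only ITGB1 had at least 2 that passed the filter. The main ITGB1 transcript, NM_002211.3, had 3065, 2935 and 2619 counts in pGIPZ-NC and 2629, 2391 and 2440 in shUSP39, with a log2 fold change of -0.20 (SE 0.05, edgeR adjusted p = 0.00527 over 12553 transcripts, of which 29.3% passed). It made up 88.5% ± 0.301 of ITGB1 counts in the control libraries and 85.7% ± 0.287 after knockdown (SD, n = 3).

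The shares of the 3 shUSP39 libraries were all below those of the 3 pGIPZ-NC libraries. NM_133376.2 made up 10.5% and 12.6% (log2 fold change 0.11, edgeR adjusted p = 0.556), and NM_033668.2, with 34, 23 and 39 counts against 42, 49 and 49, made up 0.998% and 1.62% (log2 fold change 0.54, edgeR adjusted p = 0.278). The edgeR test of transcript usage did not call ITGB1 (edgeR adjusted p = 0.163), where 3.69% of 1628 genes were called. After adjustment the count of subunit genes with changed usage was 0 of 1. At an unadjusted p under 0.05 ITGB1 would pass, but the share of all genes that pass at that limit was not computed. How reads shared between transcripts were counted is not stated, and the transcript shares depend on it. The counts refer to annotated transcripts and give no measure of intron retention.

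The genes around the subunits were read from 4 lists. Of 35 integrin adaptors, the proteins that link integrin tails to actin and to signalling, 29 were tested, 5 rose and 6 fell, with a median log2 fold change of 0.01. Over all genes tested 33.6% passed (16.1% higher and 17.5% lower), and the counts of these 4 lists are to be read against that background. The largest falls by the naming rule were KANK2, which binds talin (14.7 ± 2.14 to 9.18 ± 0.974 CPM, edgeR adjusted p = 0.000154), FLNA, the actin crosslinker filamin A (34.2 ± 1.49 to 21.6 ± 0.501 CPM, edgeR adjusted p = 2.60e-07), and SRC, the kinase (9.80 ± 0.515 to 6.87 ± 0.854 CPM, edgeR adjusted p = 0.00587). Both talin genes fell, TLN1 by 0.18 and TLN2 by 0.46 on the log2 scale, while the kindlin gene FERMT1 (log2 fold change 0.37), PXN, which encodes paxillin (0.51), PARVA (0.18), CRKL (0.21) and the low LIMS2 (1.47) rose. The remaining fall was TNS2 (-0.64). ACTN1, a gene known to be widely expressed, had at most 4 counts in any library, so a low count in this table does not show a low level.

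Of 16 partners of laminin in the basement membrane, 8 were tested, 2 rose and 1 fell (33.6% of all genes tested passed), with a median of -0.05. The fall was NID2, which encodes nidogen-2, a protein that links laminin to type IV collagen. NID2 had 850, 1116 and 848 counts in pGIPZ-NC and 129, 139 and 140 in shUSP39, a 6.85-fold lower level (log2 fold change -2.78, SE 0.12, edgeR adjusted p = 4.00e-16). COL18A1, the source of endostatin, rose from 10.9 ± 1.41 to 14.9 ± 1.20 CPM (edgeR adjusted p = 0.00470), and AGRN, which encodes the laminin-binding proteoglycan agrin, had a log2 fold change of 0.98 at a low level (1.69 and 3.32 CPM, edgeR adjusted p = 0.00445). The type IV collagen and perlecan (HSPG2) genes were at or near the filter.

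Of 12 laminin receptors other than integrins, or their partners inside the cell, 9 were tested, 3 rose and 1 fell (against 16.1% and 17.5% of all genes tested), with a median of 0.28. BCAM, a receptor for laminins with the α5 chain, had 467, 473 and 351 counts in pGIPZ-NC and 155, 153 and 162 in shUSP39 (log2 fold change -1.44, SE 0.14, edgeR adjusted p = 3.18e-09). UTRN, which encodes utrophin, the link from dystroglycan to actin, had 369, 459 and 380 counts against 1203, 1099 and 1078 (log2 fold change 1.49, SE 0.09, edgeR adjusted p = 7.22e-13). The dystroglycan gene DAG1 itself did not pass (0.28, edgeR adjusted p = 0.215). SDC3, a syndecan, rose by a log2 fold change of 0.36, and RPSA by 1.00, which is uncertain because that gene has many near-identical copies.

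Of 19 other integrin ligands, 10 were tested, 3 rose and 1 fell (against 16.1% and 17.5% of all genes tested), with a median of 0.12. CYR61, a secreted ligand of several integrins, rose from 492 ± 5.73 to 875 ± 25.1 CPM (log2 fold change 0.83, SE 0.03, edgeR adjusted p = 4.55e-17). CTGF, of the same family, fell from 92.5 ± 2.51 to 69.7 ± 1.29 CPM (log2 fold change -0.41, SE 0.05, edgeR adjusted p = 1.14e-06). MFGE8 (1.51) and LTBP1 (2.02), both at lower levels, were the other 2 that rose.

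**Figure D5:**
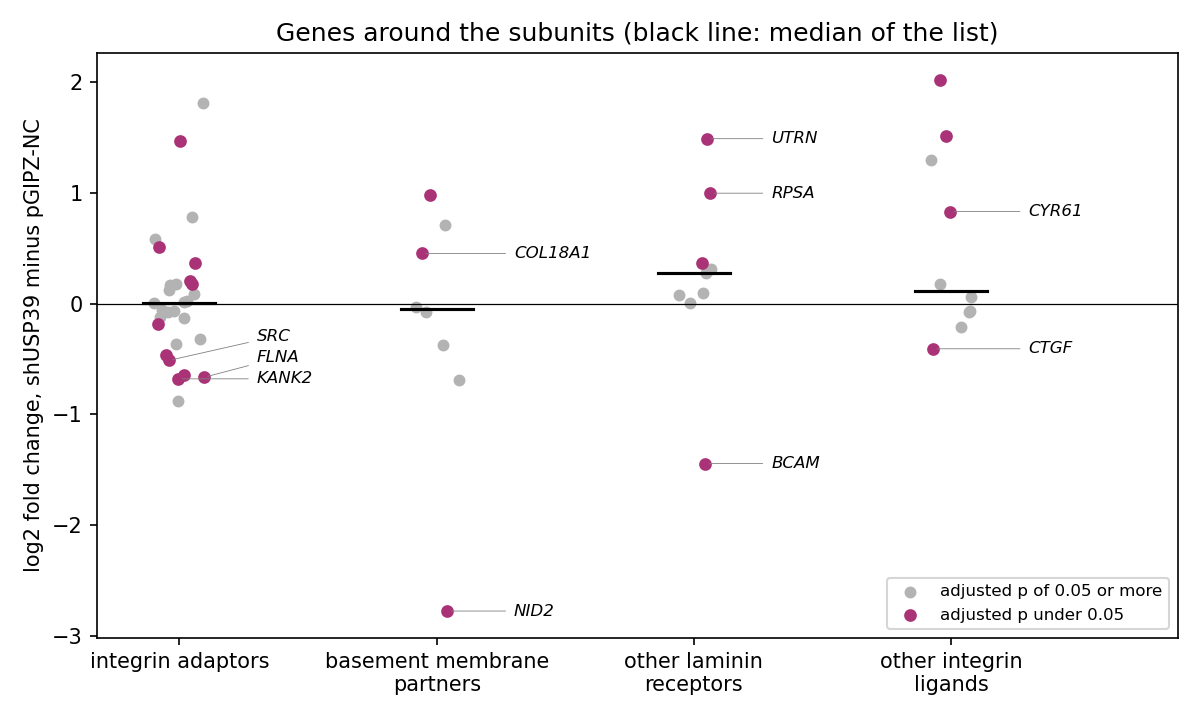
Log2 fold change, shUSP39 minus pGIPZ-NC, of the tested genes of 4 lists around the subunits; coloured points have an adjusted p under 0.05, grey points do not, and black lines are list medians. The medians lie between -0.05 and 0.28. Of the coloured points, NID2 (-2.78) and BCAM (-1.44) lie far below their lists, and LTBP1 (2.02), MFGE8 (1.51), UTRN (1.49) and LIMS2 (1.47) far above theirs.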

How the data were processed

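RNA-seq libraries of A2780 cells, 3 with pGIPZ-NC and 3 with shUSP39, were grouped by their labels. The authors deposited 1 table of raw read counts per RefSeq messenger RNA, without normalization. The submitters' processing notes name HISAT2, Cufflinks and hg19; the counter, its use of strand and its treatment of reads shared between transcripts are not given in the sources used here. The authors' signal, fold, p-value and q-value columns are group means and results of their own comparison and were not used.

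Counts were summed from 21368 transcripts to 16571 gene symbols, after 46 of 47 symbols turned into dates were repaired through the transcript. Integrin and laminin subunit genes were taken by symbol, and the values of 1 of them are not reported here. These genes and the gene lists were chosen with earlier results of these data known. In edgeR 4.0.16 (R 4.3.3), genes were filtered (filterByExpr, minimum count 10), scaled with TMM and fitted with robust quasi-likelihood on group. All 6 libraries entered 1 fit, and 10695 genes were tested at an adjusted p under 0.05. Transcript usage was tested with diffSpliceDGE. A 95% interval of a fold is 1.96 SE on either side of its log2 value. The coefficient of biological variation was 7.59%. Every library differed from its replicates beyond sampling noise. Levels per length used the longest coding transcript of GENCODE release 44 on GRCh37. Coordinates are from the same annotation.

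Of other lists, the text names the 3 genes with the largest change among those past the test whose groups did not overlap and whose higher group had a mean of 5 CPM or more, where so many passed, and lists all other genes that passed in adaptor, partner, receptor and ligand lists. On simulated data for this comparison (10586 genes), 58% of 100 genes changed by 0.5 on the log2 scale and 97.0% of 99 changed by 1.5 were recovered, with 9 false calls. The simulation gave all genes the same biological spread and changed far fewer of them than the 33.6% called in the data. These rates therefore need not hold for the data. The alternatives changed the scaling (upper-quartile, library size only, or size factors of DESeq2 1.42.0), the filter (none, or 10 counts or more in all libraries) or the tool (Wald test of DESeq2, or voom of limma 3.58.1). Others left out each library, kept shUSP39 replicate 1 alone against pGIPZ-NC, took the highest transcript per gene, or added the replicate number as a block. Depth was 28294819 to 32939264 counts per library; counts of 0 to 3 were read as not detected.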

Additional observations from a re-analysis of the deposited data

How the results depend on the processing

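LAMB1, LAMB2 and ITGA5 kept their direction and their side of the threshold under all 16 alternatives, with log2 fold changes of 1.48 to 1.58, -0.49 to -0.40 and 0.25 to 0.34. ITGA3 and ITGB8 lost their call only with shUSP39 replicate 1 alone. LAMA5, LAMC1, ITGB1 and ITGAE were changed by less than 0.3 on the log2 scale and lost their call under several alternatives. Upper-quartile scaling left 1 subunit gene lower in place of 5 (LAMB2). That scaling moved the split of all called genes from 1726 higher and 1872 lower to 2077 higher and 1501 lower. LAMC1 also lost its call with library size only (-0.07, adjusted p = 0.0899). With shUSP39 replicate 1 alone against pGIPZ-NC, the log2 fold change was 1.56 for LAMB1, 0.29 for ITGA5, -0.47 for LAMB2 and -0.27 for LAMA5. Calls in that fit assume that the lone library varies like the others. With 1 library left out in turn, the subunit genes higher numbered 4 to 6 and those lower 4 to 5, those beyond 2-fold 2 to 4 higher and 0 to 1 lower. Of all genes tested, 28.2% to 32.3% were called in these fits, against 33.6% with all 6 libraries. LAMA1 joined those higher without any 1 pGIPZ-NC library or without shUSP39 replicate 1, and ITGA11 did without shUSP39 replicate 1. ITGB4 joined those lower without pGIPZ-NC replicate 3 or without shUSP39 replicate 2. The filter asks for as many libraries as the smaller group holds, so 16 to 19 subunit genes passed it there in place of 15. LAMA1, ITGA11 and ITGB4 passed it only through the group where they were high, so these calls lend no support to a difference. With no filter LAMA1 was called as well, giving 3 higher beyond 2-fold, and the median of all genes moved to 0.12. The direction of ITGA7 turned to -0.53 with shUSP39 replicate 1 alone, and ranged from -0.21 to 0.33 with 1 library left out. ITGB7 ranged from -1.15 to 0.17 with 1 library left out, higher without pGIPZ-NC replicate 2 or shUSP39 replicate 2. The median over the tested subunit genes lay between -0.09 and -0.04 under every scaling and with each library left out. The LAMB1 share of the beta chains, alternatives chosen after seeing the data, moved by less than 1 SD with a library left out, per length or with shUSP39 replicate 1 alone. Apart from the genes that entered through the filter, the causes of these moves were not tested.

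With the replicate number as a block, 4 subunit genes were higher and 5 lower, and these were the same genes. Over all genes the block gave 1904 higher and 2077 lower. The numbers were not taken to pair the samples, since deviations of same-numbered libraries correlated at 0.07, 0.00 and 0.02.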
